A study of Mus musculus with 1677 samples.

Results

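The 5 genes described here are the DEC transcriptional repressors Bhlhe40 and Bhlhe41 and 3 genes whose mRNA follows the circadian clock, Ciart, Usp2 and Wee1. They are 5 of the 24533 gene rows of the deposited count table. Bhlhe40 was chosen by its peak times, since its daily peak moved furthest between the feeding groups, so its peak times, amplitudes and fold changes are given as a description with no test. Tests are reported for the other 4 genes. The study fed wild-type C57BL/6J mice a Western diet (45% fat, 17% sucrose) for 7 weeks. One group ate ad libitum (ALF), and the other was under time-restricted feeding (TRF), with food for 9 h of the night between ZT13 and ZT22, where ZT counts hours from lights on in a 12 h light and 12 h dark cycle. The mice were bought at 10 weeks of age and kept on chow for 2 weeks before the diet, which both groups then received, so no group stayed on chow. RNA of 22 tissues was sequenced at 12 clock times, 2 h apart, usually with 2 libraries per feeding group and time, which gave 517 ALF and 518 TRF libraries.

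Bhlhe40 and Bhlhe41, also called DEC1 and DEC2, are basic helix-loop-helix proteins that bind the E-box, the same DNA motif that the clock activators BMAL1 (encoded by Arntl) and CLOCK use, and they repress transcription there. Their own genes are driven by E-boxes, and Bhlhe40 is also known to respond to hormones, growth factors and hypoxia. Ciart (Chrono) encodes a further repressor of BMAL1 and CLOCK. Usp2 encodes a ubiquitin-specific protease that removes ubiquitin from several proteins, among them PER1. Wee1 encodes the kinase that places an inhibitory phosphate on CDK1 and so holds cells before mitosis, and its transcription in mouse liver is under E-box control. In nocturnal mice, targets of BMAL1 and CLOCK such as Dbp typically peak late in the day in peripheral organs, and feeding time can shift peripheral clocks.

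The E-box is the motif that BMAL1 and CLOCK use, so promoter windows were searched for it. The 250 bases before the annotated start are shown for the members that had an entry in the RefSeq promoter table (build GRCm38.p6). Sequences read 5′ to 3′ on the gene's strand, with each CACGTG in capitals. Bhlhe40 and Wee1 had no entry. Ciart's window lies on the minus strand at chr3:95882229-95882478 and overlaps the first bases of the annotated gene. Bhlhe41's window is also on the minus strand, at chr6:145865421-145865670. Usp2's window lies on the plus strand at chr9:44084670-44084919 and ends 17899 bases inside the annotated gene, so it belongs to an internal start.
Ciart: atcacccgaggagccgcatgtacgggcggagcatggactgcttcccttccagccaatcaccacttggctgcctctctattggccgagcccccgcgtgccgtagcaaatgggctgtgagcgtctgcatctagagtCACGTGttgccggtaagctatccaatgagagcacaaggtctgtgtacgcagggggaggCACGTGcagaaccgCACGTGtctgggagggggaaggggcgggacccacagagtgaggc
Bhlhe41: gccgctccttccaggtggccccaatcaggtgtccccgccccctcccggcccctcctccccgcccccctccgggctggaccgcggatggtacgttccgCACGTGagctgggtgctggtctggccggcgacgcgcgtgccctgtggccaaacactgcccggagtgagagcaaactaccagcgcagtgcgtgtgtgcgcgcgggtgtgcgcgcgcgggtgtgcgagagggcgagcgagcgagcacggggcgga
Usp2: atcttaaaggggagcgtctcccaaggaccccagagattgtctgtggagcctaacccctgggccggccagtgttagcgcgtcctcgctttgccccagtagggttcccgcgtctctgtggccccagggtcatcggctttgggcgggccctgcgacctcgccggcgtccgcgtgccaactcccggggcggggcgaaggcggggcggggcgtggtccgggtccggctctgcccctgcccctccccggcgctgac
Ciart held 3 copies of CACGTG, which begin 116, 58 and 44 bases before the start. Bhlhe41 held 1 copy, 153 bases before the start, and Usp2 held 0. Of 32851 windows of the same length in the table, 6.02% held CACGTG, which reads the same on both strands. Searched on both strands, CACGTT (3.85% of all windows), TTANGTAA (the D-box, 2.06%), AGGTCA (14%) and TGACGTCA (1.55%) were found in none of these 3 windows. No overlap between those motifs therefore arose. In the same build the genes span chr6:108660629-108666925 (Bhlhe40), chr6:145858243-145865420 (Bhlhe41), chr3:95878500-95882257 (Ciart), chr9:44067021-44095627 (Usp2) and chr7:110122059-110143299 (Wee1).

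Library totals ran from 2.26 M to 500.6 M counts with a median of 11.3 M, and 3 libraries exceeded 100 M. In each tissue the markers listed for it had a median of at least 1 CPM (counts scaled to a common library total). In addition, 13 libraries correlated better with the mean profile of a tissue other than the labelled one. These were 4 inguinal fat libraries nearer epididymal fat, 4 kidney medulla libraries nearer cortex, 3 libraries of hypothalamic nuclei, and 1 duodenum and 1 ileum library of the TRF group at ZT4 that were each nearer the other tissue. All results include these 16 libraries, and each call of a daily mean or rhythm difference named below also passed without them. The labels do not say that replicate libraries came from separate mice, nor which tissues came from the same mouse, so p-values measure the spread between libraries, which may in part be technical. Suprachiasmatic nucleus libraries held a median of 16.9% ribosomal precursor reads (Rn45s), against 0.36% over all libraries.

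Brown fat went against its time labels. Core clock genes there ran through 2 cycles per labelled day: in ALF the 12-h component of Arntl had a log2 amplitude of 2.27 ± 0.27 (SE) and the 24-h component 0.47 ± 0.27, and in TRF the values were 2.23 ± 0.27 and 0.62 ± 0.27. Dbp gave 12-h amplitudes of 2.34 ± 0.27 and 2.22 ± 0.27. In all 5 members the 12-h component was also the larger, as in Ciart, with 12-h amplitudes of 1.89 ± 0.32 in ALF and 1.94 ± 0.32 in TRF, and Usp2 with 1.04 ± 0.14 and 1.12 ± 0.14. In ALF, Bhlhe41 gave 0.97 ± 0.17 at 12 h and 0.07 ± 0.17 at 24 h, and Wee1 0.70 ± 0.11 and 0.23 ± 0.11. The margin was smaller for Bhlhe40 in both groups, and for Wee1 and Bhlhe41 in TRF. Bhlhe40 gave 0.63 ± 0.23 at 12 h and 0.35 ± 0.23 at 24 h in ALF, and 0.51 ± 0.23 and 0.30 ± 0.23 in TRF. In TRF, Wee1 gave 0.55 ± 0.11 at 12 h and 0.45 ± 0.11 at 24 h, and Bhlhe41 0.89 ± 0.17 and 0.58 ± 0.17. The 12-h component exceeded the 24-h one for 9 of 9 genes checked (the members, Arntl, Dbp, Per2 and Nr1d1) in both feeding groups of brown fat, and for no more than 3 of 9 in any other tissue and group. Brown fat is kept in the counts below, and the counts are repeated without it. None of the 4 tested members passed a 24-h rhythm test there, and none of the 5 gave a peak time in both groups.

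**Figure D1:**
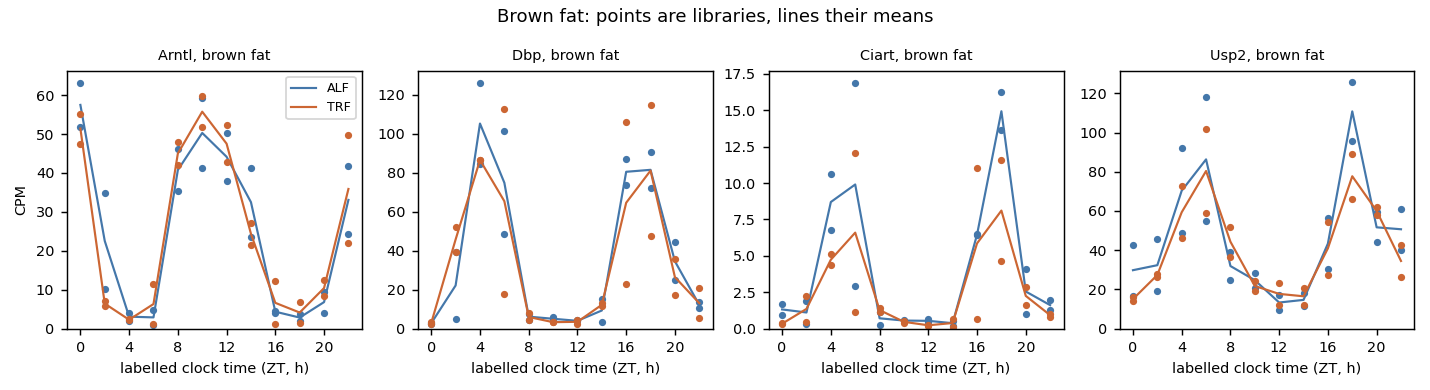
CPM of Arntl, Dbp, Ciart and Usp2 in brown fat against labelled clock time in hours; points are single libraries, lines join the means of ALF (blue) and TRF (orange). Each gene shows 2 maxima per labelled day in both feeding groups, for Usp2 near ZT6 and ZT18.

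All 5 genes were detected in every tissue, with a different order of tissues for each. Bhlhe40 was highest in brown fat, where the 24 ALF libraries ran from 34.5 to 483.7 CPM with a median of 173.1, and lowest in pancreas, from 6.33 to 37.2 with a median of 21.7. Bhlhe41 was highest in skeletal muscle, from 36.5 to 113.7 CPM with a median of 61.1, and lowest in kidney cortex, from 0.56 to 5.52 with a median of 1.54. Mean Bhlhe41 levels in ALF were also low in liver (2.23 CPM) and jejunum (2.90 CPM) and high in the dorsomedial hypothalamus (65.6 CPM) and the suprachiasmatic nucleus (61.1 CPM). Ciart was highest in amygdala (5.99 to 23.9 CPM, median 11.1) and lowest in spleen (0.55 to 4.89, median 1.12). Usp2 was highest in skeletal muscle (94.0 to 323.1 CPM, median 172.2), followed by heart and kidney, and lowest in spleen (0.83 to 3.41, median 2.27). Wee1 was highest in duodenum (19.01 to 53.2 CPM, median 37.2) and lowest in skeletal muscle (1.94 to 7.60, median 4.20).

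The ratio of the highest to the lowest ALF mean was 9.66 for Bhlhe40, 30.2 for Bhlhe41, 7.48 for Ciart, 85.5 for Usp2 and 8.71 for Wee1. These ratios depend on the scaling between tissues, and with TMM factors over all libraries they were 5.06, 48.4, 7.88, 175.3 and 4.57. Most neighbours in these orders did not differ beyond their spread, which here includes the daily rhythm: of 21 neighbouring pairs, the means lay further apart than the larger SD in 1 pair for Bhlhe40 (suprachiasmatic nucleus over pancreas), 2 for Bhlhe41, 0 for Ciart, 1 for Usp2 (epididymal fat over spleen) and 1 for Wee1 (inguinal fat over muscle). ALF and TRF means lay within the larger SD of each other in all 22 tissues for each member. In tissue pieces, fewer cells of a type and less RNA per cell cannot be told apart. The tissues highest in Wee1 differed in markers of proliferating cells. In duodenum, where Wee1 was highest, the mitotic kinase Cdk1 averaged 78.4 ± 15.9 CPM and the proliferation marker Mki67 448.5 ± 88.3 CPM (SD, n = 48). In dentate gyrus, next in order with a mean Wee1 level of 34.4 CPM, Cdk1 averaged 0.46 ± 0.31 CPM and Mki67 3.51 ± 1.49 CPM (SD, n = 46).

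**Figure D2:**
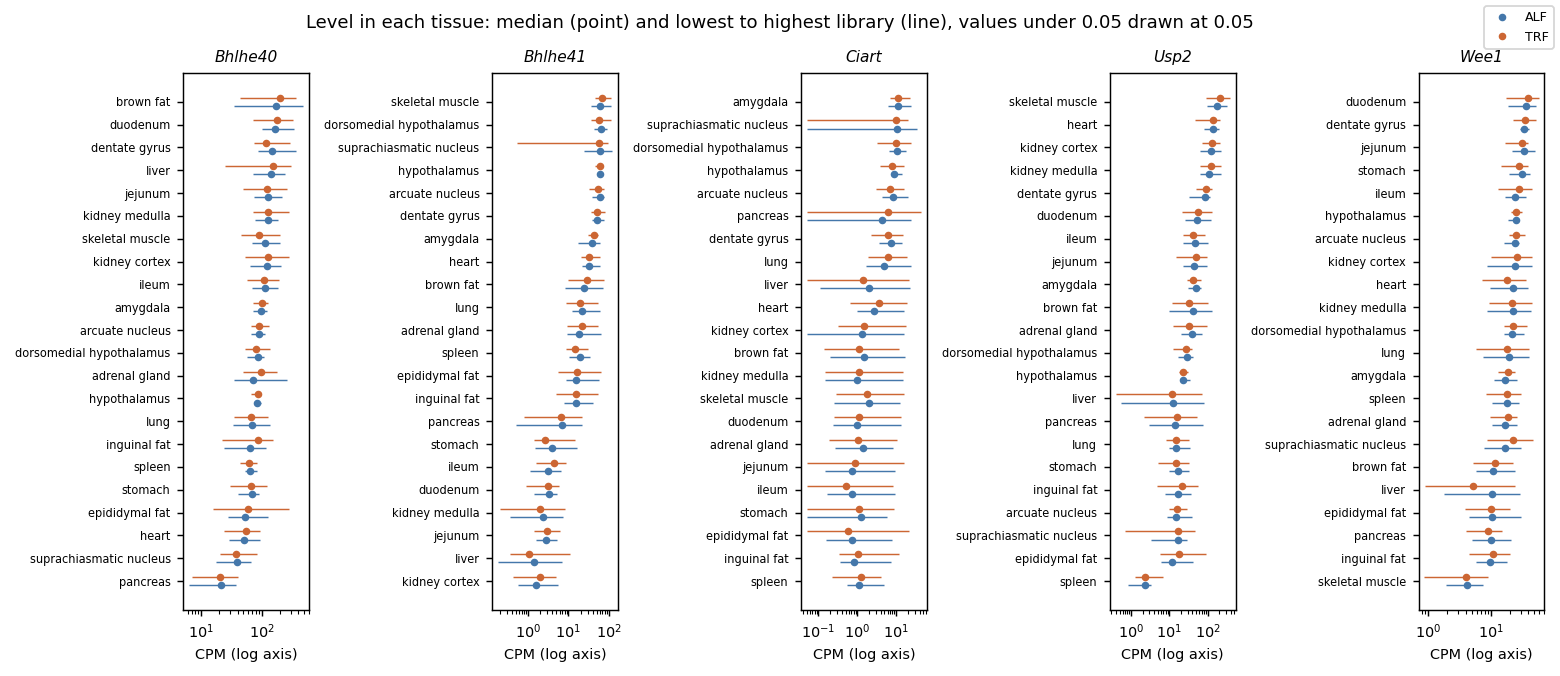
Level of each gene in 22 tissues in CPM on a log axis, 1 panel per gene, ordered within a panel; points are medians and lines run from the lowest to the highest library, ALF in blue and TRF in orange. The 2 feeding groups overlap in every tissue, and the span across tissues is widest for Usp2.

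Bhlhe40 peaked later under TRF in all 14 tissues where both feeding groups gave a peak time. A peak time was taken from a 24-h cosine fitted to log2 CPM and is given only where the amplitude was at least 0.15 and over 2 SE. The delay had a median of 2.64 h and ran from 0.76 h to 6.50 h. These values chose the gene and carry no test. In epididymal fat the peak moved from ZT 8.06 to 14.6, by 6.50 ± 1.07 h (SE), and the log2 amplitude went from 0.53 ± 0.14 to 1.52 ± 0.14. Inguinal fat followed with 5.96 ± 1.17 h, liver with 4.72 ± 1.29 h and kidney medulla with 4.28 ± 1.03 h. Adrenal gland gave 4.02 ± 1.76 h, skeletal muscle 3.80 ± 1.09 h and kidney cortex 2.97 ± 0.81 h. The smallest delays were in gut tissues, at 0.76 ± 1.27 h in ileum and 1.05 ± 1.30 h in stomach, both smaller than their errors. This order of tissues belongs to the cosine: with a 12-h term added to the curve, all 14 shifts were again delays, but ileum read 4 h, stomach 4.85 h and adrenal gland 8.5 h, and heart (0.9 h) and muscle (1.15 h) the least.

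The libraries show how the Bhlhe40 course changed in fat. In epididymal fat at ZT14, 1 h into the food window, the TRF libraries held 138.6 and 284.5 CPM and the ALF libraries 53.6 and 60.9. At ZT6 the TRF libraries held 16.1 and 18.8 CPM, the lowest time point of either group, and the highest ALF time point was ZT10 with 55.5 and 128.6 CPM. The TRF libraries were thus higher at ZT14, and at ZT6 they lay below every ALF library, of which the lowest held 27.7 CPM. The log2 fold change of the daily mean was 0.01 ± 0.24. In inguinal fat at ZT14 the TRF libraries held 130.8 and 153.2 CPM against 84.5 and 74.6 in ALF, and the lowest TRF time was ZT2 with 36.3 and 22.4 CPM. In liver at ZT14 the TRF libraries held 277.1 and 308.4 CPM, against 159.6 and 225.8 in ALF, and at ZT4 they held 24.7 and 59.1 against 101.5 and 99.7. The groups did not overlap at those liver times. In skeletal muscle Bhlhe40 was highest in the light phase in both groups, at ZT8 in ALF (172.3 and 200.4 CPM) and at ZT10 in TRF (192.0 and 193.3).

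At the other end of the range, the gut showed a night peak in both groups. In ileum the highest ALF time point was ZT14 (159.4 and 183.3 CPM) and the highest TRF one ZT20 (196.6 and 134.4), both lowest at ZT6. In stomach, Bhlhe40 was highest at ZT12 in ALF (79.3 and 89.9 CPM) and at ZT18 in TRF (106.0 and 83.7). In pancreas it was highest at ZT12 in both groups, with 37.2 and 33.97 CPM in ALF and 40.6 and 27.97 in TRF. In brown fat the highest labelled times were ZT18 in ALF (325.0 and 483.7 CPM) and ZT2 in TRF (349.9 and 266.4). Bhlhe40 gave no peak time in both groups in the brain regions, spleen and brown fat, and its log2 amplitude in hypothalamus was 0.06 ± 0.03 in ALF and 0.07 ± 0.03 in TRF. The log2 fold changes of its daily mean, which carry no test, ran from -0.22 ± 0.10 in muscle to 0.28 ± 0.13 in adrenal gland. In adrenal gland the ALF libraries at ZT0 were far apart, with 263.7 and 53.4 CPM.

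Set beside Dbp, the E-box target encoding a PAR bZIP activator, in the same libraries, the Bhlhe40 delay was longer by a median of 1.31 h over the 14 tissues, a value with no test because the delay chose the gene. Arntl, the gene of the activator BMAL1, gave a median delay of 0.88 h over 21 tissues, Dbp 1.01 h over 21, Per2 0.82 h over 20 and Nr1d1 (REV-ERB alpha) 0.74 h over 21. In epididymal fat Arntl moved by -0.12 ± 0.47 h and Dbp by 0.93 ± 0.38 h. With the 12-h term, the Bhlhe40 delay was 5.3 h in epididymal fat, 9.05 h in inguinal fat and 2.35 h in liver. Leaving out each library in turn kept its cosine delay between 6.15 and 6.93 h in epididymal fat, 5.27 and 6.74 h in inguinal fat, and 4.04 and 5.14 h in liver.

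**Figure D3:**
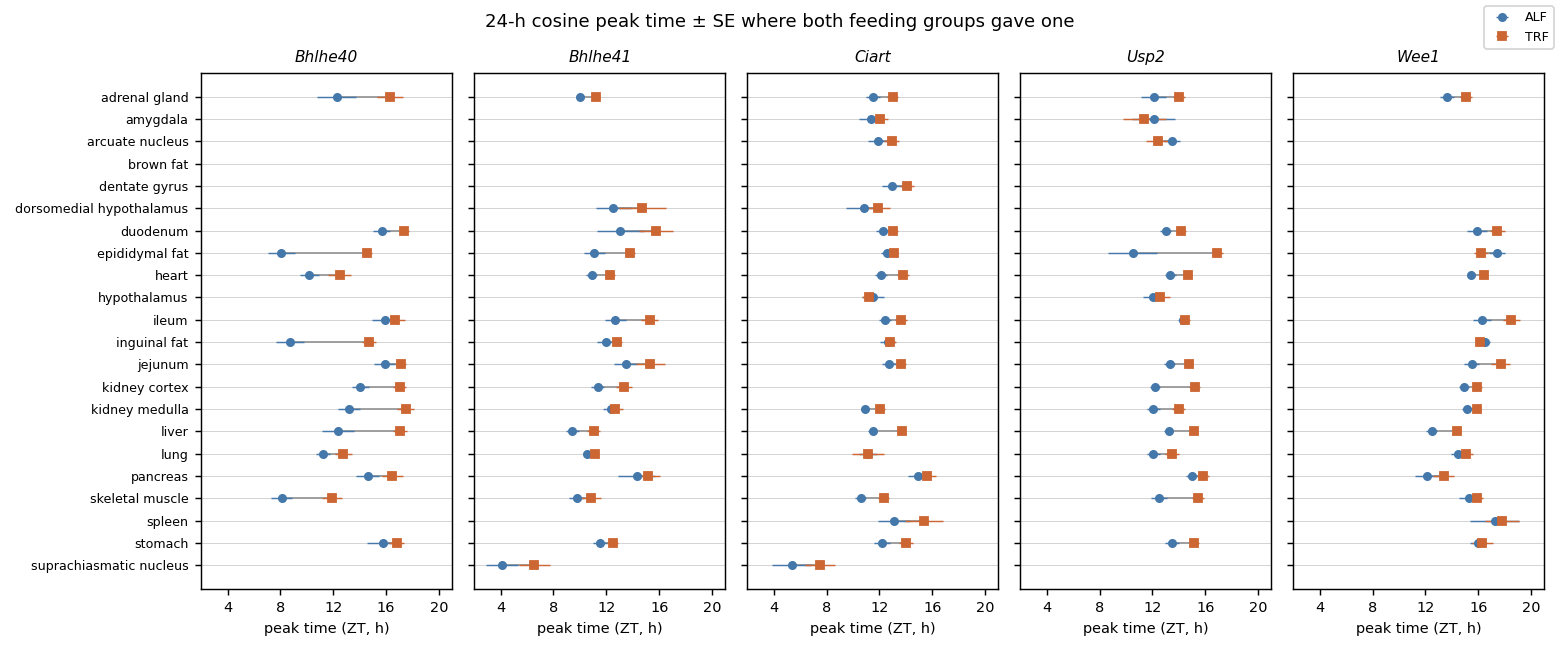
Peak time in ZT hours of the 24-h cosine, with SE bars, for each gene and tissue where both feeding groups gave one; circles are ALF, squares TRF, joined by a line. The longest lines are those of Bhlhe40 (6.50 h) and Usp2 (6.40 h) in epididymal fat, and all Bhlhe40 squares lie to the right of the circles.

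Bhlhe41 cycled in most peripheral tissues and its peak also came later under TRF. The peak was later in all 16 tissues with a peak time in both groups, by a median of 1.51 h (0.36 to 2.72 h), with 6 delays over 2 SE. With the 12-h term it was later in 14 of 16, by a median of 0.88 h, and kidney medulla (-0.6 h) and muscle (-0.4 h) changed direction. Relative to Dbp in the same tissues, the delay differed by a median of 0.31 h and by more than 2 SE in 0 of 16. This SE treats both genes as independent although they were measured in the same libraries. The count therefore does not show that they moved together. Its 24-h rhythm passed edgeR's quasi-likelihood test, Benjamini-Hochberg adjusted over all genes of a tissue, in 13 of 22 tissues in ALF and 15 of 22 in TRF. Across all genes and tissues 11.7% of tests passed in ALF and 27.4% in TRF.

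Liver had the deepest Bhlhe41 rhythm, with a log2 amplitude of 1.71 ± 0.23 in ALF and 1.83 ± 0.23 in TRF. ALF liver libraries held 6.84 and 5.27 CPM at ZT12 and 0.18 and 0.47 at ZT2, and TRF ones 10.8 and 8.22 at ZT10 and 0.47 and 0.35 at ZT22. The largest delay was in epididymal fat, at 2.72 ± 0.85 h, where the log2 amplitude also went from 0.60 ± 0.12 to 1.35 ± 0.12. There the highest TRF time was ZT14 (42.5 and 65.3 CPM) and the lowest ZT0 (7.63 and 5.52), while ALF was highest at ZT10 (18.8 and 56.2), where its 2 libraries were far apart. The difference in rhythm between the groups passed in this tissue alone for Bhlhe41 (adjusted p = 0.00201, edgeR), and 11.3% of all genes tested passed in epididymal fat. Duodenum gave a delay of 2.70 ± 2.19 h, with ALF highest at ZT10 (4.70 and 3.57 CPM) and TRF at ZT14 (4.48 and 5.74), and neither group's rhythm passed. The smallest delays were 0.36 ± 0.79 h in kidney medulla, highest at ZT10 in both groups (7.18 and 6.09 CPM in ALF, 7.99 and 6.01 in TRF), and 0.58 ± 0.42 h in lung, highest at ZT12 in ALF (56.2 and 61.8) and at ZT10 in TRF (53.1 and 52.1). In kidney cortex, where the gene was lowest, it went from 0.81 and 0.63 CPM at ZT2 to 4.84 and 5.52 at ZT10 in ALF. In skeletal muscle, where it was highest, ALF libraries held 113.7 and 103.4 CPM at ZT12.

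In the suprachiasmatic nucleus, the brain's master clock, Bhlhe41 peaked early in the day, at ZT 4.13 ± 1.22 in ALF and 6.56 ± 1.17 in TRF. This is earlier than its median peak over tissues, 11.4 in ALF and 13.1 in TRF. Dbp was also early there, at 5.53 ± 0.83 and 6.50 ± 0.67. The ALF rhythm of Bhlhe41 passed in this tissue (adjusted p = 0.00531, edgeR) and the TRF rhythm did not (adjusted p = 0.241). With a 12-h term in the curve, its 24-h log2 amplitude was 0.81 ± 0.24 in ALF and 0.78 ± 0.26 in TRF. Of 13757 genes tested there, 0 passed the rhythm-difference test, so a loss of rhythm under TRF is not shown. One TRF library at ZT20 held 0.52 CPM and its partner 45.7. Without the lower one, the delay of 2.43 ± 1.69 h became 0.41 h.

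The daily mean of Bhlhe41 rose in ileum and fell in stomach, where 9.05% and 24.8% of all genes tested passed this test. In ileum the log2 fold change was 0.41 ± 0.11 (adjusted p = 0.0209, edgeR; with limma it missed the threshold without ZT0, ZT14, ZT16, ZT20 or ZT22, adjusted p up to 0.0926), with 6.58 and 8.21 CPM at the highest TRF time (ZT14) and 6.69 and 5.93 at the highest ALF time (ZT10). In stomach it was -0.33 ± 0.12 (adjusted p = 0.0424). Adipocyte markers rose in ileum in 8 of 8 genes tested, from a summed ALF median of 252.2 CPM (98.9 to 849.8) to 843.5 in TRF (150.3 to 1289). In stomach 8 of 8 tested skeletal muscle markers rose, from 29.8 CPM (13.9 to 216.1) to 66.2 (20.6 to 445.9), with Myh4 at a median of 0. The part of these cells in the Bhlhe41 differences was not tested. The stomach call was lost after correcting each library for GC content (adjusted p = 0.107) and with limma without ZT4, ZT6, ZT8 or ZT22 (adjusted p up to 0.108).

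Ciart had deep rhythms in most tissues. Its 24-h rhythm passed in 17 of 21 tissues in ALF and in 17 of 21 in TRF, and the log2 amplitude had a median of 1.54 in ALF and 1.85 in TRF. In liver, where the rhythm was deepest, the amplitude was 2.96 ± 0.25 and 3.28 ± 0.25. ALF liver libraries held 18.6 and 22.8 CPM at ZT12 and 0.11 and 0.16 at ZT22. TRF liver libraries held 21.1 and 19.4 at ZT14 and 0 and 0.23 at ZT4. At ZT6 the groups were well apart, with 3.13 and 4.52 CPM in ALF and 0.099 and 0.24 in TRF, and ALF was also higher at ZT4 and ZT8. The peak moved by 2.21 ± 0.44 h, from ZT 11.5 to 13.7, and the rhythm difference passed (adjusted p = 0.00528, edgeR), in a tissue where 8.71% of genes passed.

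Over 20 tissues the Ciart delay had a median of 1.09 h (-0.32 to 2.26 h). The peak was later in 18 of 20 and later by over 2 SE in 7, and the delay differed from that of Dbp by over 2 SE in 0. The SE of that difference again treats both genes as independent, so the count does not show a shared delay. With the 12-h term the median was 0.6 h, and the shift changed direction in spleen (-0.8 h), arcuate nucleus (-0.75 h) and lung (0.75 h). Spleen gave 2.26 ± 1.86 h with the cosine and 6.65 h without replicate 1, with a single ALF library of 4.89 CPM and a single TRF library of 3.10 at ZT10, the highest time in both groups. Lung gave -0.01 ± 1.41 h, with the highest ALF time at ZT10 (23.4 and 14.6 CPM) and the highest TRF time at ZT12 (18.5 and 14.9). In amygdala, where the level was highest, ALF libraries held 23.9 and 18.98 CPM at ZT14 and TRF ones 19.8 and 21.9 at ZT12. In the suprachiasmatic nucleus the peak stood at ZT 5.36 ± 1.47 in ALF and 7.49 ± 1.12 in TRF, and neither rhythm passed there. In kidney cortex Ciart was removed by the filter on low counts, so it has no test there. Its ALF libraries held a median of 1.28 CPM and reached 16.3 and 15.8 CPM at ZT12.

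In fat, Ciart passed the test of the daily mean in the inguinal depot and the rhythm-difference test in the epididymal depot. In inguinal fat the daily mean rose by 0.52 ± 0.17 on the log2 scale (adjusted p = 0.00644, edgeR), while the peak moved by 0.19 ± 0.73 h. Its TRF libraries held 11.8 and 9.74 CPM at ZT14, and its ALF libraries 7.43 and 4.26 at ZT12. In epididymal fat the amplitude went from 1.70 ± 0.21 to 2.75 ± 0.21 and the rhythm difference passed (adjusted p = 0.023, edgeR). That test takes cosine and sine together and does not separate amplitude from timing. The peak there moved by 0.49 h with the cosine and by 1.45 h with the 12-h term. The TRF libraries there reached 20.9 and 16.2 CPM at ZT14, above every ALF library, of which the highest was 7.83. This call was lost in 12 of 20 alternative analyses, with adjusted p from 0.0143 to 0.249. In heart the mean rose by 0.31 ± 0.12 (adjusted p = 0.0412, edgeR), in a tissue where 30.6% of all genes passed. The heart call was lost in 14 of 23 alternatives, among them the GC correction (adjusted p = 0.0593, edgeR). The 23 include leave-one-library values, which were checked for sign only. In heart 4 of 5 macrophage markers rose, from a summed ALF median of 228.7 CPM (189.5 to 326.8) to 288.5 in TRF (236.0 to 412.7), and their part in the Ciart result was not tested.

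Usp2 showed the largest fold change of the 4 tested genes and the most differences in rhythm. In epididymal fat the daily mean rose by 0.76 ± 0.23 on the log2 scale under TRF (adjusted p = 0.00415, edgeR), and the log2 amplitude went from 0.30 ± 0.15 to 1.37 ± 0.15. At ZT16 the TRF libraries held 82.3 and 92.2 CPM and the ALF libraries 9.72 and 6.04. At ZT18 the TRF libraries held 78.9 and 46.2 and the ALF ones 8.32 and 11.4, whereas at ZT4 the groups overlapped, with 7.93 and 12.5 in TRF and 12.5 and 13.5 in ALF. The groups were thus apart at night, and a single ALF library reached 40.2 CPM, at ZT14. The ALF rhythm did not pass (adjusted p = 0.23) and the TRF rhythm did (adjusted p = 6.2e-09), and their difference passed (adjusted p = 0.000237). The delay of 6.40 ± 1.92 h therefore rests on a weak ALF cosine, and leaving out 1 ALF library at a time moved it from 5.28 h (without ZT16 replicate 2) to 8.40 h (without ZT14 replicate 2).

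Inguinal fat gave the same kind of change in rhythm, while the test of the daily mean did not pass. Usp2's log2 amplitude went from 0.16 ± 0.14 to 1.42 ± 0.14, and the rhythm difference passed (adjusted p = 0.000797, edgeR). TRF libraries held 55.2 and 39.3 CPM at ZT14 and 4.67 and 6.16 at ZT6, and ALF libraries 17.2 and 36.7 at ZT14 and 22.6 and 12.7 at ZT6. The log2 fold change of the mean was 0.06 ± 0.20 (adjusted p = 0.789). Across all genes, 11.3% of rhythm-difference tests passed in epididymal and 2.58% in inguinal fat.

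In the 3 other tissues where its rhythm difference passed, Usp2 cycled in both groups and moved later. Kidney cortex gave a delay of 2.999 ± 0.55 h (adjusted p = 0.00787, edgeR): the ALF libraries were highest at ZT12 with 190.8 and 220.9 CPM and the TRF ones at ZT16 with 209.5 and 195.3. In liver the delay was 1.91 ± 0.45 h (adjusted p = 0.0261) and the log2 amplitude 2.63 ± 0.23 in ALF and 2.98 ± 0.23 in TRF. Liver libraries at ZT16 held 65.8 and 47.8 CPM in TRF against 18.7 and 15.5 in ALF, and at ZT8 1.97 and 9.59 against 26.6 and 12.5. In heart the delay was 1.34 ± 0.49 h and the log2 amplitude went from 0.54 ± 0.06 to 0.80 ± 0.06 (adjusted p = 0.028). Skeletal muscle gave 2.94 ± 0.78 h, with 323.1 and 236.0 CPM at ZT12 in ALF and 315.7 and 377.5 at ZT14 in TRF, but its rhythm difference missed the threshold (adjusted p = 0.0589). With limma, the calls missed the threshold without single clock times: heart without ZT6 or ZT16 (adjusted p up to 0.0867), kidney cortex without ZT6 or ZT22 (up to 0.0706) and liver without ZT6 or ZT8 (up to 0.0946).

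The smallest Usp2 shifts were 0.09 ± 0.57 h in ileum, with 92.8 and 102.9 CPM at ZT14 in ALF and 76.0 and 83.3 at ZT12 in TRF, and 0.49 ± 1.08 h in hypothalamus, with 33.8 and 30.9 at ZT14 in ALF and 24.01 and 31.1 at ZT12 in TRF. Over 16 tissues the delay had a median of 1.44 h (-1.05 to 6.40 h), was later in 14 and was later by over 2 SE in 9. With the 12-h term the median was 1.05 h and 11 were later, with -2.05 h in hypothalamus, -0.2 h in ileum and 0 h in duodenum. The median peak was ZT 13.01 in ALF and 14.4 in TRF. In spleen, where the level was lowest, no rhythm passed, and the highest TRF time point held 3.13 and 6.62 CPM.

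**Figure D4:**
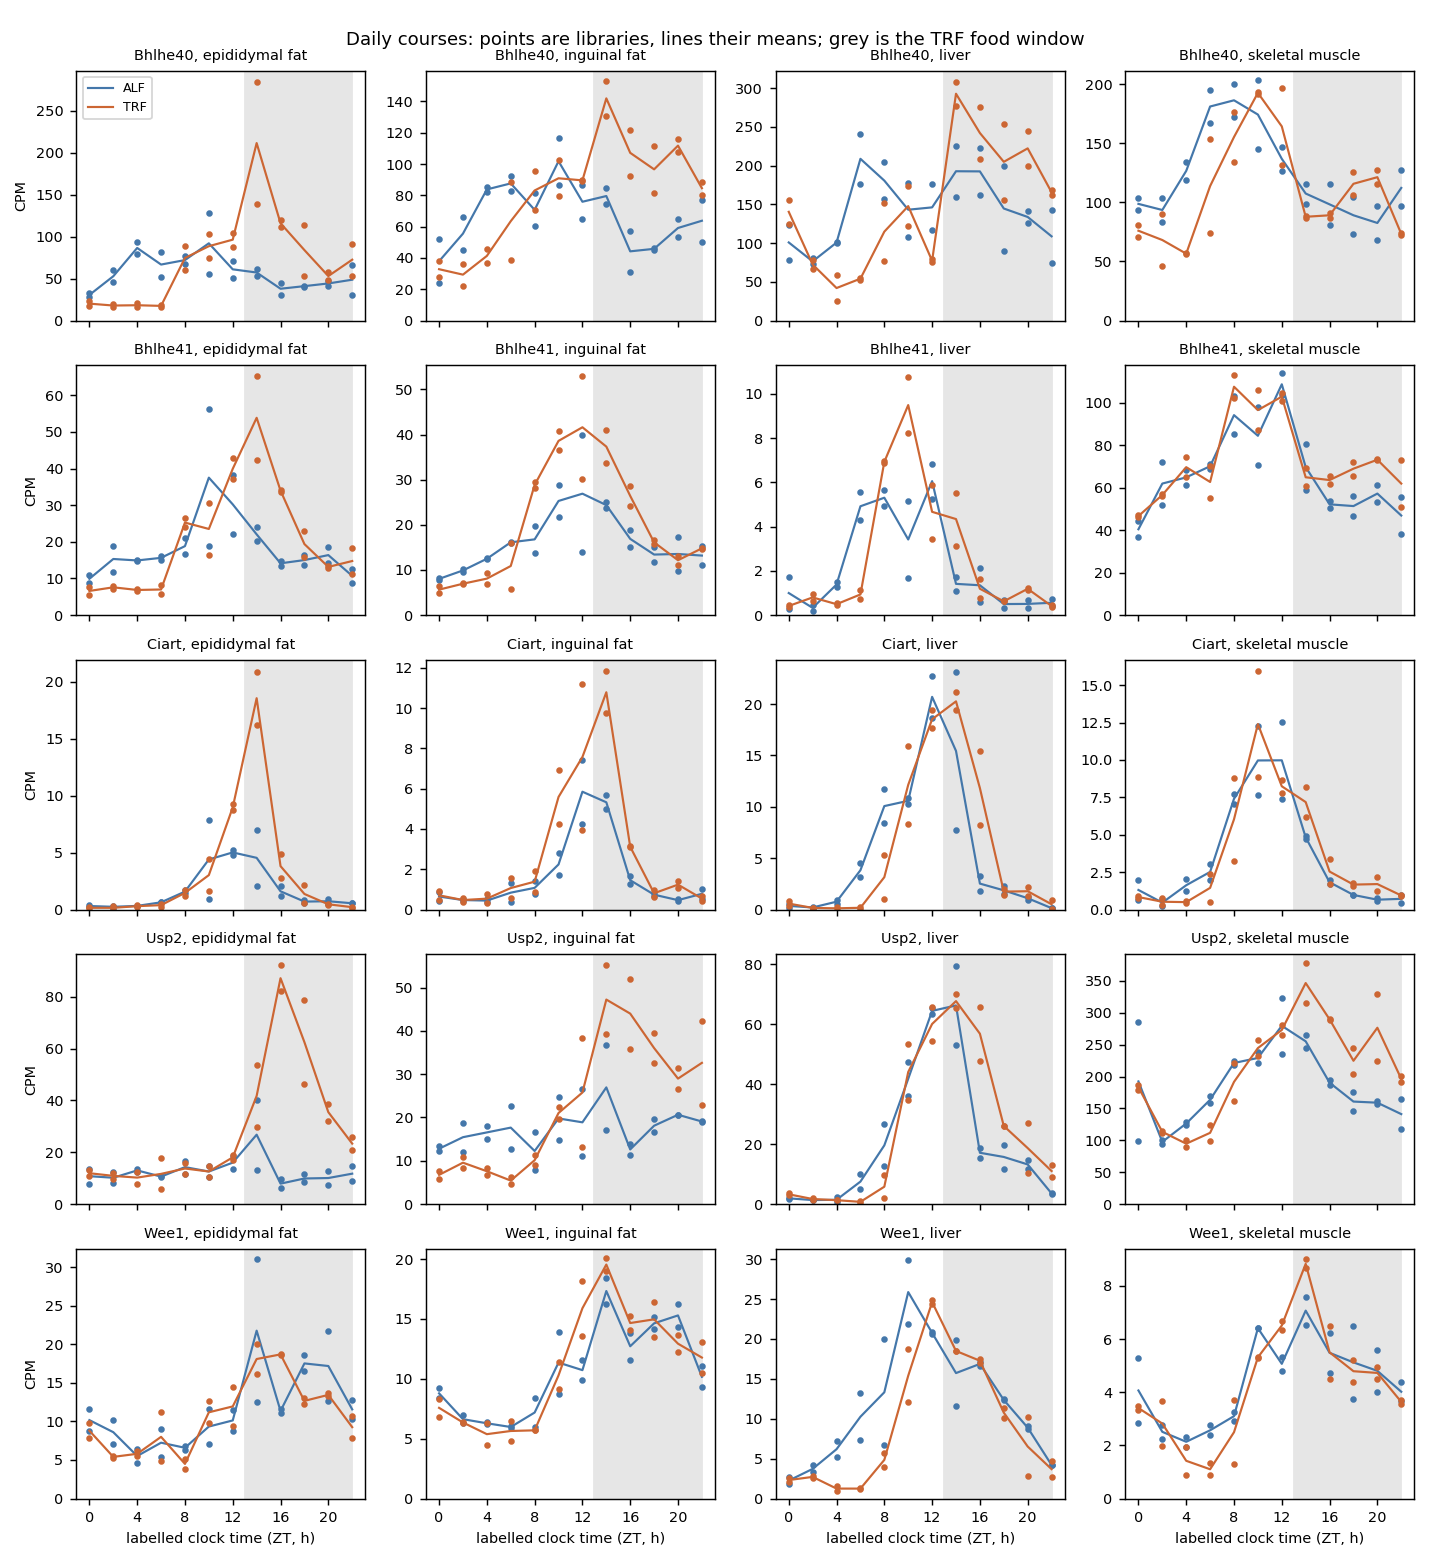
CPM of the 5 genes (rows) in epididymal fat, inguinal fat, liver and skeletal muscle (columns) against labelled clock time in hours; points are libraries, lines their means, ALF blue and TRF orange, and the grey band is the 9 h TRF food window. In epididymal fat the TRF lines of Bhlhe40 and Usp2 are highest inside the band, at 138.6 and 284.5 CPM at ZT14 and at 82.3 and 92.2 CPM at ZT16.

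Cell-type markers moved in both fat depots beside these results. In epididymal fat 5 of 5 macrophage markers fell, from a summed ALF median of 2632 CPM (776.0 to 5777) to 1045 in TRF (793.3 to 4004). The G2/M and proliferation list fell in 12 of 13 genes, from 159.2 CPM (51.1 to 331.0) to 50.1 (33.0 to 292.1), and 7 of 8 adipocyte markers rose. In inguinal fat 8 of 10 skeletal muscle markers rose, from a summed median of 246.0 CPM (26.8 to 8212) to 3063 (18.5 to 19622), as did 6 of 6 lymphocyte and 5 of 5 brown adipocyte markers, and 7 of 8 adipocyte markers fell. Muscle was the tissue richest in Usp2. In these depots 59.2% of epididymal and 66.2% of inguinal genes passed the test of the daily mean. The part of these other cells in the changes of Usp2, Ciart, Bhlhe40 and Bhlhe41 was not tested.

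Wee1 was lower under TRF in liver, heart, jejunum and stomach, and no tissue had a higher mean that passed. Of all genes tested, 20.7% passed the test of the daily mean in liver, 30.6% in heart, 45.1% in jejunum and 24.8% in stomach. In liver the log2 fold change was -0.60 ± 0.18 (adjusted p = 0.0158, edgeR). The TRF mean was lower at 8 of 12 clock times, ZT2 to ZT10 and ZT18 to ZT22, and the groups were furthest apart at ZT4 and ZT6. At ZT4 the TRF libraries held 0.89 and 1.61 CPM and the ALF libraries 7.15 and 5.21, and at ZT6 they held 1.33 and 1.16 against 7.31 and 13.2. At ZT12 the TRF libraries reached 24.4 and 24.9 CPM and the ALF ones 20.7 and 20.9. The liver amplitude went from 1.36 ± 0.16 to 1.92 ± 0.16, the peak moved by 1.94 ± 0.54 h, from ZT 12.5 to 14.4, and the rhythm difference passed (adjusted p = 0.0104). That difference missed the threshold with limma without ZT4 or ZT6 (adjusted p up to 0.103).

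In heart Wee1 fell by 0.28 on the log2 scale (SE 0.06, adjusted p = 0.000187, edgeR), and the TRF mean was higher at 1 of 12 clock times. Its heart libraries held 39.6 and 38.6 CPM at ZT14 in ALF and 35.6 and 36.9 in TRF, and 11.5 and 9.89 against 7.29 and 8.30 at ZT4. This call held in every alternative that had a test (edgeR, limma or DESeq2), with adjusted p from 1.1e-05 to 0.0393. Leaving out single libraries, which was checked for sign only, kept its direction. In jejunum the fold change was -0.19 ± 0.06 (adjusted p = 0.00563) and in stomach -0.16 ± 0.05 (adjusted p = 0.0281, and up to 0.0677 with limma without ZT14 or ZT18). Set beside the shares of all genes given above, 1 of 10 G2/M and proliferation genes tested rose in heart. In jejunum 4 of 13 rose and 1 fell, in stomach 2 of 13 rose, and in liver 0 of 7 passed. Cdk1, the substrate of WEE1, was not among those that passed, with a log2 fold change of 0.24 ± 0.15 in heart and -0.22 ± 0.22 in liver. Beside the heart result stand the same macrophage markers as for Ciart. Beside the liver result, 3 of 3 small intestine markers that were tested fell, and beside the jejunum result 7 of 8 adipocyte markers rose, from 318.1 CPM (146.9 to 501.4) to 512.9 (233.2 to 767.7). Their part in the Wee1 results was not tested.

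The median Wee1 peak in ALF stood at ZT 15.5, and it came 4.27 h (median) after that of Dbp in the same tissues. Over 15 tissues it moved by a median of 0.98 h under TRF (-1.23 to 2.21 h), later in 13 and later by over 2 SE in 4. With the 12-h term the median was 0.35 h and 10 of 15 were later. Ileum gave 2.21 ± 0.90 h with the cosine but -0.75 h with the 12-h term, highest at ZT14 in ALF (37.0 and 34.5 CPM) and at ZT16 in TRF (33.5 and 41.3). Jejunum gave 2.18 ± 0.91 h, and 0.9 h with the 12-h term, although its highest TRF time point (ZT12, 37.4 and 39.4) came before the ALF one (ZT14, 50.3 and 42.3). In stomach the shift was 0.32 ± 1.00 h, and -1.05 h with the 12-h term, with 38.7 and 40.4 CPM at ZT18 in ALF and 40.1 and 31.9 at ZT16 in TRF. In inguinal fat Wee1 moved by -0.37 ± 0.51 h, with 16.3 and 18.4 CPM at ZT14 in ALF and 18.99 and 20.1 in TRF at the same time. In epididymal fat, where Bhlhe40 moved by 6.50 h and Usp2 by 6.40 h, Wee1 moved by -1.23 ± 0.81 h, which is 2.17 ± 0.89 h less than Dbp. The SE of that difference treats Wee1 and Dbp as independent although they share libraries. Duodenum, the tissue with the highest Wee1 level, held 43.7 and 53.2 CPM at ZT14 in ALF and 50.3 and 58.6 at ZT20 in TRF. Skeletal muscle, with the lowest, held 6.54 and 7.60 CPM at ZT14 in ALF and 8.67 and 9.00 in TRF.

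**Figure D5:**
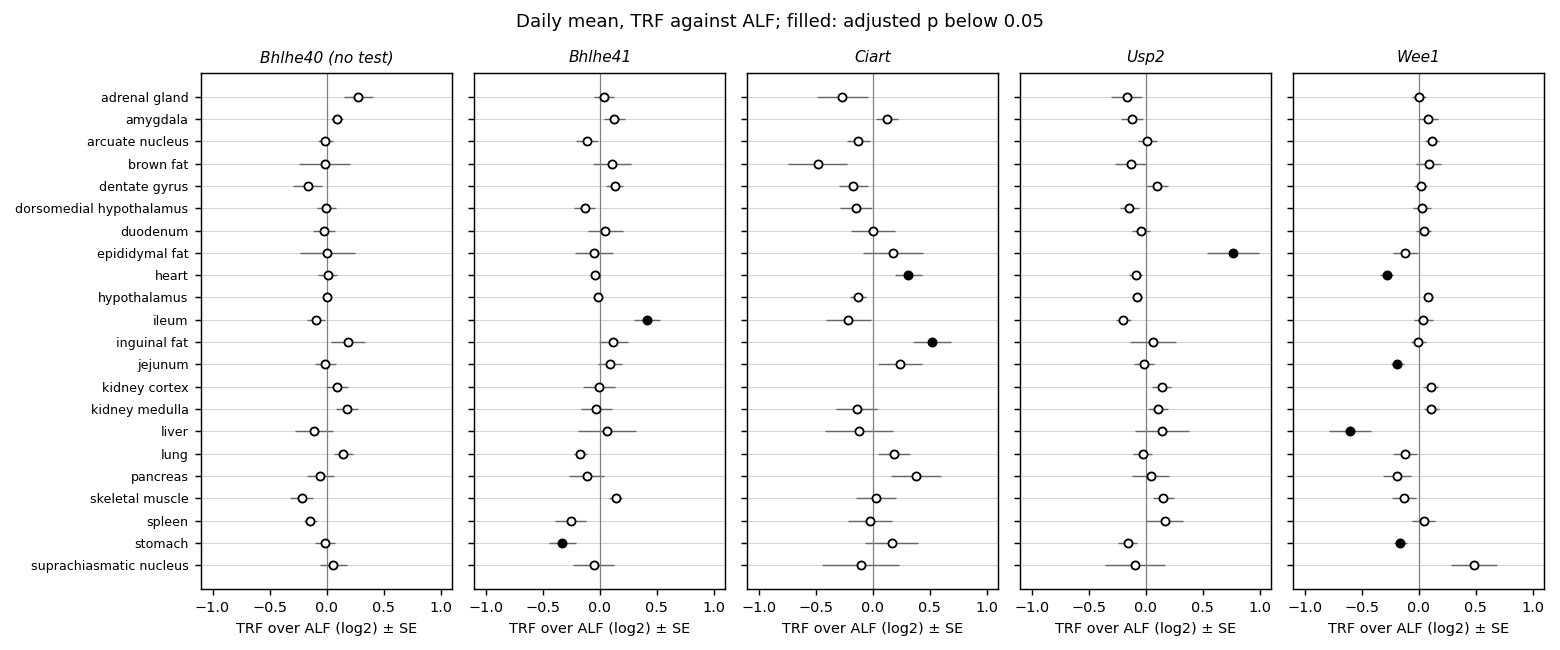
Log2 fold change of the daily mean, TRF over ALF, with SE bars for each gene (panels) and tissue (rows); filled points passed at an adjusted p below 0.05 and open points did not, and Bhlhe40 has no test. Filled points stand at 0.76 for Usp2 in epididymal fat and at -0.60 for Wee1 in liver.

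Counted over the 4 tested genes and all tissues, the daily mean rose in 4 of 87 tests and fell in 5. Across all genes and tissues 10.0% of tests rose and 9.72% fell (19.7% in all), so the shares for the 4 genes, 4.60% and 5.75%, were below the background. Their 24-h rhythm passed in 59 of 87 tests in ALF (67.8%) and 64 in TRF (73.6%), above the 11.7% and 27.4% of all tests given above. The rhythm difference passed in 9 of 87 (10.3%), against 1.74% of all tests, and 25 of 87 had an unadjusted p below 0.05. Usp2 gave 5 of the 9, Ciart 2, and Bhlhe41 and Wee1 1 each. Leaving out brown fat gave the same 4, 5, 59, 64 and 9 among 83 tests. For a list of 16 core clock genes the corresponding counts were 20 higher, 30 lower, 245 rhythmic in ALF, 273 rhythmic in TRF and 46 with a rhythm difference, of 352 tests. The 13 G2/M and proliferation genes gave 18, 28, 37, 65 and 14 of 186 tests.

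Whether the feeding effect on the daily mean itself differed between tissues was tested with 1 limma model over all libraries. It differed for Usp2 (adjusted p = 0.000334), from -0.20 in adrenal gland to 0.81 in epididymal fat, and for Wee1 (adjusted p = 8.56e-10), from -0.68 in liver to 0.38 in the suprachiasmatic nucleus. The model uses 1 estimate of spread per gene for all tissues. Tested within the suprachiasmatic nucleus alone, the Wee1 mean did not pass. Bhlhe41 missed the threshold (adjusted p = 0.0903). Since 91.8% of the 9761 genes tested in all tissues passed this test, passing it does not set these genes apart. Ciart, with no test in kidney cortex, could not be included.

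Clock genes were the nearest matches to all 5 members. Over the means of 528 groups (tissue, feeding group and clock time), with log2 CPM centred within each tissue, the gene most like Bhlhe40 was Per2 (Pearson r = 0.59), followed by Per3, Tef, Coq10b and Per1. Bhlhe41 (r = 0.77) and Ciart (r = 0.84) were most like Dbp. Usp2 (r = 0.79) and Wee1 (r = 0.72) were most like Per3. Coq10b, a mitochondrial coenzyme Q-binding protein gene, was among the 5 nearest to all members except Ciart. Among the members, Ciart and Bhlhe41 were nearest (r = 0.77) and Bhlhe41 and Wee1 furthest apart (r = 0.45). These values are descriptive, since the groups share tissues and clock times.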

How the data were processed

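Gene-level expected counts of 1035 libraries were used as the authors deposited them (29.6% of values are not whole). The submitters' processing notes name CASAVA 1.8, FastQC 0.11.8, STAR 2.5.3a and HOMER 4.10 with GRCm38 (mm10), and per the labels libraries were made with a stranded mRNA kit. Whether repeat sequencing runs of a library are summed in its column is not given in the sources used here. Time labels of ileum and liver run a day later than their titles, and clock time modulo 24 h was used. Counts were rounded, and 4 rows with duplicated date-like names were left out. Library totals of 2.26 M to 500.6 M counts limit the precision.

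Tests within a tissue used edgeR 4.0.16 (TMM, filterByExpr, quasi-likelihood; R 4.3.3). The daily mean model held clock time and feeding, and the rhythm model a mean, cosine and sine of 24 h per feeding group. P-values were Benjamini-Hochberg adjusted over all genes of a tissue at 0.05. The SE of an edgeR fold change was derived from the fold change and its quasi-likelihood F statistic. Amplitudes and peak times came from limma 3.58.1 on log2 CPM (prior count 2), with delta-method errors. Feeding effects were compared between tissues in 1 limma model that treats libraries as independent and shares 1 estimate of spread per gene between tissues. The genes and lists were chosen with earlier results of these data known. Tissues named for a member were those with its highest and lowest ALF mean, its 2 largest and 2 smallest peak shifts and mean changes of at least 0.5 (log2), and of their 12 clock times the highest and lowest are mainly printed. Likeness used genes with a mean of at least 1 CPM in each tissue. Alternatives included DESeq2 1.42.0, GC offsets, no filter, left-out libraries, replicates and clock times. Scripts were tested on simulated data. Same-numbered ALF and TRF libraries were checked for pairing, and their deviations correlated by a median of 0.035 over 245 comparisons (-0.78 to 0.71). Of these, 85 lay above 0.1 and 56 below -0.1, so the check cannot exclude pairing in part of the data. No block was used in the main tests. Protein sequences were not used here.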

Additional observations from a re-analysis of the deposited data

Results flagged for a closer look

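For Usp2 and Wee1 the effect of feeding on the daily mean differed between tissues when the difference itself was tested (limma F test over 22 tissues). For Usp2 the adjusted p was 0.000334, with log2 effects from -0.20 in adrenal gland to 0.81 in epididymal fat. For Wee1 it was 8.56e-10, with effects from -0.68 in liver to 0.38 in the suprachiasmatic nucleus, where the Wee1 mean did not pass on its own. Of the 9761 genes in that test, 91.8% passed, so this is the usual outcome and does not set the 2 genes apart.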

How the results depend on the processing

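Among the 4 tested genes, leaving out replicate 1 or replicate 2, which removes nearly all duplication within clock times, gave 0 to 2 higher means (1 of the 2 shared with the full data), 1 to 2 lower means, 35 to 36 ALF rhythms and 0 to 3 rhythm differences, and an adjusted p of 0.0749 to 0.310 for Usp2 between tissues. With limma, there were 2 higher means without ZT0, ZT16, ZT20 or ZT22, and 5 rhythm differences without ZT6 (4 of them shared). The cause was not tested. TMM over all libraries gave highest-to-lowest tissue ratios of 48.4 for Bhlhe41, 175.3 for Usp2 and 4.57 for Wee1. Adding a 12-h term turned the direction of 10 of 81 peak shifts, among them Wee1 in ileum (-0.75 h), and set Usp2 in duodenum to 0 h. Over all alternatives 24 of 81 shifts changed direction at least once: 0 of 14 for Bhlhe40, 6 of 16 for Bhlhe41, 10 of 20 for Ciart, 3 of 16 for Usp2 and 5 of 15 for Wee1. Bhlhe40 was chosen by its peak shift, so its count cannot be set against those of the other genes.

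With the replicate number as a block, the counts were 4 higher and 6 lower means, 59 ALF rhythms, 64 TRF rhythms and 10 rhythm differences, and no call of a mean or rhythm difference named in the report was lost. The labels do not say that the replicate numbers pair ALF with TRF samples. Without the 16 libraries of doubtful tissue or very high total, the counts were 4, 6, 58, 63 and 9. The 9 mean calls, 9 rhythm-difference calls and 81 peak shifts were each rerun under several alternatives. Of these reruns, 168 of 207 mean-level values and 147 of 180 rhythm-difference values held, and 472 of 562 peak-shift values moved by less than their error. The reruns share libraries and are not independent. The mean-level values include leave-one-library fold changes, which had no test and counted as held when they kept their sign. Ciart in kidney cortex was removed by the filter on low counts, and the part of depth in that was not tested.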
